A study of Mus musculus with 38 samples.

Results

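The enzymes that place and remove DNA methylation were followed through 3 mouse kidney tumour models and normal kidney. They were taken by gene symbol, as the 9 rows of the expression table named Dnmt1, Dnmt3a, Dnmt3b, Dnmt3l, Uhrf1, Uhrf2, Tet1, Tet2 and Tet3, out of 21705 genes. The table held 38 RNA-seq libraries, 24 of cultured tumour cells, 9 of kidney tumours and 5 of normal kidney. The cells were 3 lines, MYC-2983 (labelled MYC+), VM-3055 (Vhl-/-; MYC +) and VIM-3039 (Vhl-/-; MYC +; Ink-/-/Arf-/-), each with 4 libraries maintained on doxycycline (Dox) and 4 from which Dox was withdrawn. Tumours of the same 3 genotypes, 3 libraries each, came from animals maintained on Dox, and the 5 kidneys were wild type and given vehicle. All 3 genotypes carried Ksp-rtTA and Tet-O-MYC, so that Dox switches on a MYC transgene in renal tubule cells. VM and VIM animals also carried a tamoxifen-inducible Cre driven by the same Ksp (Cdh16) promoter and a floxed Vhl, and VIM animals lacked Ink4a/Arf in the germline. Each genotype was represented by 1 line, so line and genotype cannot be told apart, and the line numbers of VM-3055 and VIM-3039 were taken from the study rather than from the labels. In the labels the VM and VIM cells shared 1 series of sample numbers, and those of MYC-2983 cells began again. Whether that was a separate sequencing set is not given, so cell differences from MYC-2983 cannot be told apart from such a set. The 3 MYC tumour libraries came from 2 mice, 1 from mouse 2917 and 2 from mouse 2983. The kidneys were labelled B6 (replicates 1 and 3) or KT (replicates 2, 4 and 5), and nothing said whether the 4 cell libraries of a group were separate cultures, so that p-values for cells measure the spread between libraries, which may be technical.

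DNA methylation in mammals is the addition of a methyl group to cytosine, mostly where a cytosine is followed by a guanine (CpG). Dnmt1 copies the pattern onto the new strand after replication and is brought to the replication fork by Uhrf1, which binds hemimethylated CpG, while Dnmt3a and Dnmt3b place methyl groups on unmethylated DNA with Dnmt3l as a catalytically inactive partner in germ cells. The Tet enzymes oxidise methylcytosine with 2-oxoglutarate and iron, and the oxidised bases are then lost by dilution at replication or excised by the base excision repair enzymes.

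In the NCBIM37 (mm9) annotation Dnmt1 lies on chromosome 9 from 20711650 to 20757317 on the minus strand, Uhrf1 on chromosome 17 from 56442744 to 56462909 on the plus strand, and Uhrf2 on chromosome 19 from 30105003 to 30168212 on the plus strand. Dnmt3a lies on chromosome 12 from 3806007 to 3914443, Dnmt3b on chromosome 2 from 153475186 to 153513466 and Dnmt3l on chromosome 10 from 77504692 to 77526367, each on the plus strand and each overlapped by an annotated gene of the other strand. Tet1 lies on chromosome 10 from 62267318 to 62361866, Tet2 on chromosome 3 from 133126643 to 133207354 and Tet3 on chromosome 6 from 83312367 to 83391672, all on the minus strand. An annotated U6 gene overlaps Tet1 on the same strand, where strand cannot separate reads. The values are per gene and cover the exons of its transcripts. The library kit kept strand, but whether the counting used it is not given in the sources used here, so reads in the overlapped stretches of Dnmt3a, Dnmt3b and Dnmt3l may belong to either gene.

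Start regions of the 4 members with the largest differences between conditions are shown with their CpG, the target of these enzymes. Each is the RefSeq window (build GRCm38.p6) of 300 bases, 250 before to 50 after a transcript start, with the CpG dinucleotides in capitals. They lie at chr9:20952574-20952873 (Dnmt1, minus strand), chr17:56304063-56304362 (Uhrf1, plus strand), chr2:153649199-153649498 (Dnmt3b, plus strand) and chr10:62887275-62887574 (Tet1, minus strand), and each is the window with the most CpG among those of its gene.
Dnmt1: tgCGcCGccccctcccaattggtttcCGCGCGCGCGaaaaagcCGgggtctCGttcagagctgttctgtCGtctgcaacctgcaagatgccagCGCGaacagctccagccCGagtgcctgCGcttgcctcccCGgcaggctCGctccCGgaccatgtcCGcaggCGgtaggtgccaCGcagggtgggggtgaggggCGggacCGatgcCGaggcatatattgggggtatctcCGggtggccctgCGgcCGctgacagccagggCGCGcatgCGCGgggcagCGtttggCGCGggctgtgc
Uhrf1: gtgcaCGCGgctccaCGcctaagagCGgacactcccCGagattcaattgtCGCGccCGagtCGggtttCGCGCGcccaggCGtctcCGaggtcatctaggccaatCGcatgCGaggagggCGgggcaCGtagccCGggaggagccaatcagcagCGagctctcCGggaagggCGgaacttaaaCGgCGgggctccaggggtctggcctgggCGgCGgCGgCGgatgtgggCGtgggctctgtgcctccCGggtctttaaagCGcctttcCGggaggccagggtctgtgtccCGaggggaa
Dnmt3b: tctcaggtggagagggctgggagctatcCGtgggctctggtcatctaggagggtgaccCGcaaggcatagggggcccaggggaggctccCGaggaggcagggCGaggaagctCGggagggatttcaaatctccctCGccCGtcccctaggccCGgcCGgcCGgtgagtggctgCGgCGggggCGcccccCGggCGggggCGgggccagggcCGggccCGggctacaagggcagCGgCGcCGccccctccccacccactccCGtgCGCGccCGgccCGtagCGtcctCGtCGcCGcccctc
Tet1: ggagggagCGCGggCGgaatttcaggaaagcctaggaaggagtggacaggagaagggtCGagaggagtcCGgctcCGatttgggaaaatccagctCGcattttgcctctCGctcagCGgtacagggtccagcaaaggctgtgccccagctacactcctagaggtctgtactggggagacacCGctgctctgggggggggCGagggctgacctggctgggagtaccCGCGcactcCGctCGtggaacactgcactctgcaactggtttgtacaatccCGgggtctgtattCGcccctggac
The windows of Dnmt1 and Uhrf1 held 33 CpG each, more than 91.4% of the 32851 mouse windows, and that of Dnmt3b held 30, more than 88.3%. The Tet1 window held 17, more than 68.6% of them, against a median of 7 and a 10th to 90th percentile range of 1 to 31. In all, 16 windows matched the 9 members. They were searched on both strands for CACGTG, the E-box bound by MYC with MAX, which occurs in 7.15% of all windows, and for TTTGGCGC or TTTCCCGC, forms of the E2F site, which occur in 1.56%. TTTGGCGC was found in the Dnmt1 window above at bases 284 to 291, and CACGTG in 1 window of Dnmt3a and 1 of Dnmt3l. No window of Dnmt3b, Uhrf1, Uhrf2, Tet1, Tet2 or Tet3 held these letters, and a match describes the sequence only.

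The libraries held an estimated 8.22 to 36.6 M reads (M, megareads), with 12.4 to 36.6 M in cells and 8.22 to 15.6 M in tissue. MYC-2983 cells held 23.1 to 28.6 M, and VM-3055 and VIM-3039 cells 12.4 to 36.6 M. Values are estimated gene counts with a common upper quartile of 1000 per library, and they are called units here. The limit that 3 reads allow was 1.16 to 5.65 units, and it covers counting error only. Dnmt3l stood at or under that limit in all 38 libraries and is not compared further. The row of mouse Myc was lower in the libraries labelled Dox (676 against 1831 units in MYC-2983, 384 against 1364 in VM-3055 and 381 against 1479 in VIM-3039), and reads of the transgene could not be separated from it, so the direction of every Dox comparison rests on the labels, and the replication genes given below were higher in the libraries labelled Dox. With Dox, Vhl averaged 13.1 units in the VM line, 12.7 in the VIM line and 451 in the MYC line. In tumours Vhl averaged 499.3 units in MYC, 53.6 in VM and 252.5 in VIM, against 685.6 in kidney. VIM tumours thus held more Vhl RNA than VM tumours, without overlap, and the cause was not tested. Of 8 renal tubule markers together, cells held 8899 to 22840 units, tumours 9614 to 25890 and kidney 207400 to 288900. In the cell groups Cdh16 averaged 3483 to 12710.0 units, Pax8 1878 to 3835 and Lrp2 3407 to 5763, while Slc34a1, Umod and Aqp2 were under the limit of 3 reads. Pax8 averaged 3114, 2415 and 3231 units in MYC, VM and VIM tumours against 1083 in kidney.

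Per kilobase of the longest annotated transcript, Uhrf1, Dnmt1 and Uhrf2 had the 3 highest levels of the members in cells, while in kidney Uhrf2 alone of them led. In MYC-2983 cells with Dox the mean level per kilobase was 965 units for Uhrf1, 861 for Dnmt1 and 350 for Uhrf2, followed by Tet3 at 127, Dnmt3a at 95.8, Dnmt3b at 70.7, Tet2 at 40.1 and Tet1 at 5.99. In kidney the order began with Uhrf2 at 179 units per kilobase, Tet2 at 79.5, Dnmt3a at 76.4, Dnmt1 at 58.3 and Tet3 at 46.5, and ended with Uhrf1 at 8.34, Tet1 at 4.28 and Dnmt3b at 4.02. Uhrf1 was thus first in those cells and sixth of 8 in kidney, while Tet1 was among the 2 lowest of the 8 in both. The plot of levels by library shows these groups side by side.

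**Figure D1:**
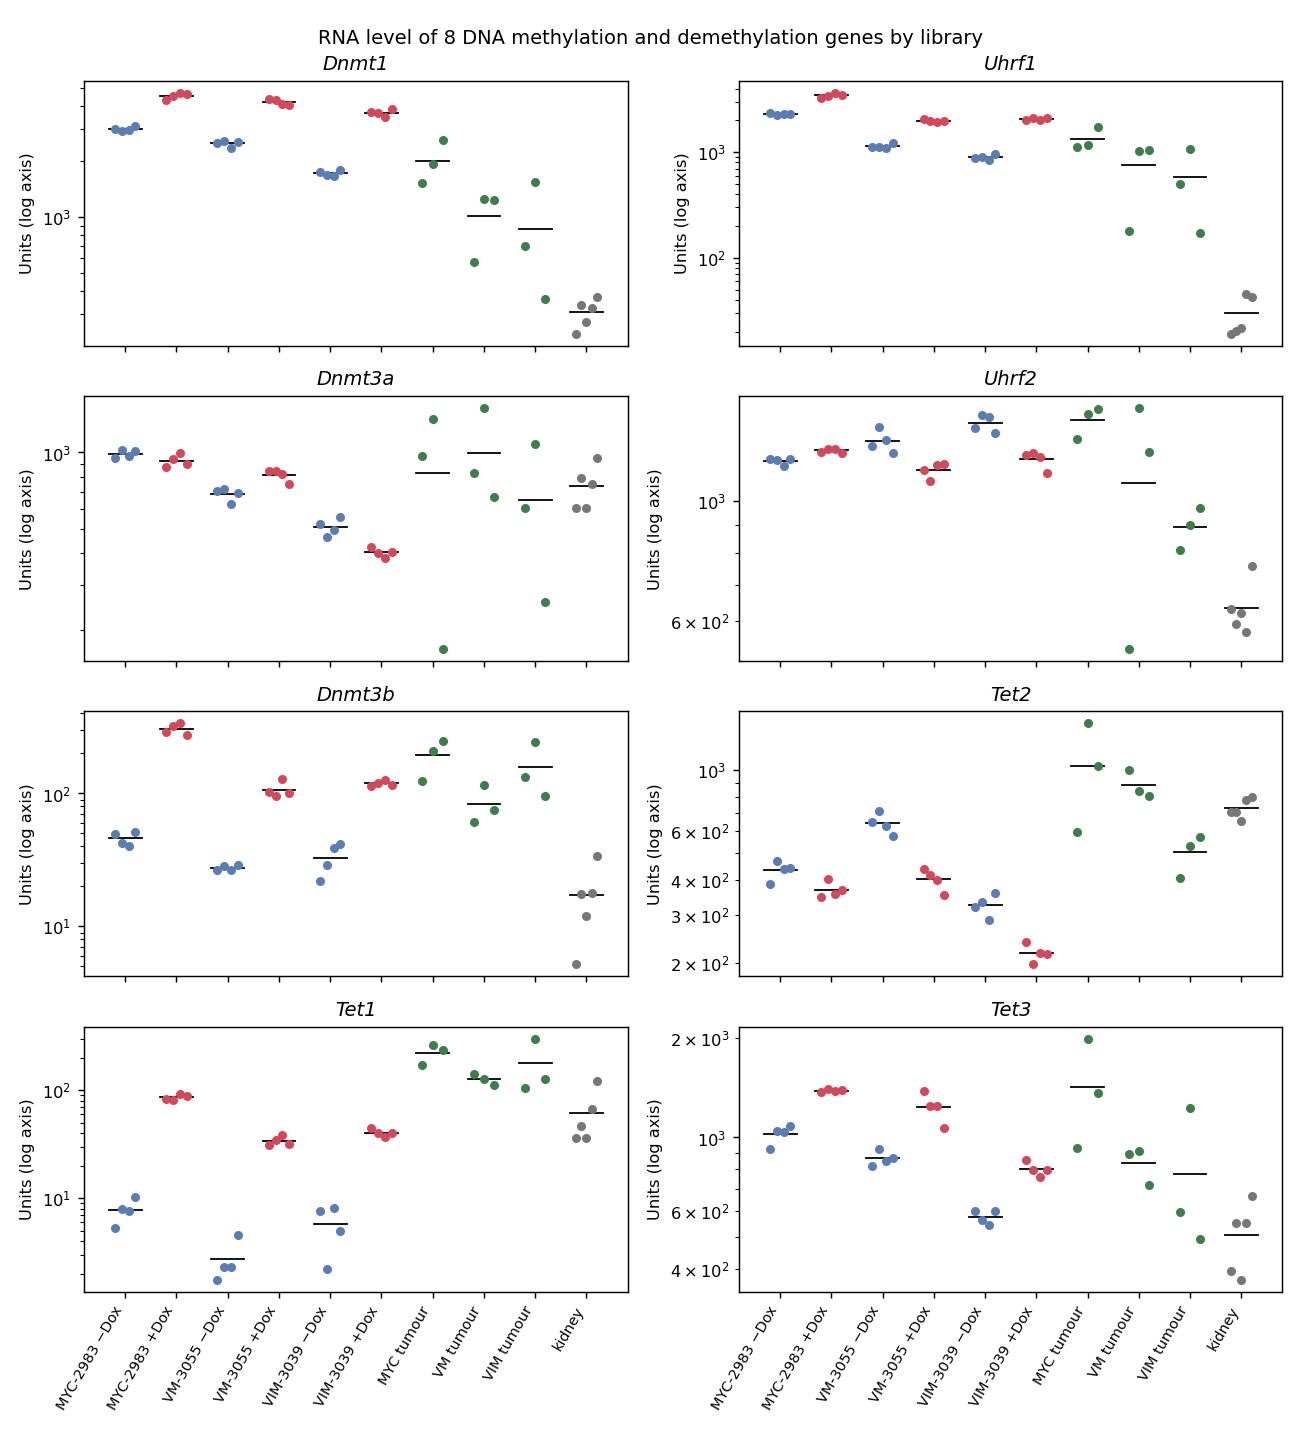
Level of each member except Dnmt3l in each of the 38 libraries (units on a log axis), by group, with Dox cells in red, cells without Dox in blue, tumours in green and kidney in grey, and the group mean as a horizontal line. Dnmt3b and Tet1 sit far lower in blue than in red in all 3 lines, and Uhrf1 is lowest in kidney, between 19.03 and 45.6 units.

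The first comparison asked how the members differed in cells of 1 line kept on Dox and withdrawn from it. With Dox, 6 of the 8 members tested rose and 2 fell in MYC-2983, where 31.5% of all genes tested rose and 44% fell. In VM-3055 cells 6 rose and 2 fell (26.1% and 47.7% of all genes), and in VIM-3039 cells 5 rose and 3 fell (31.1% and 44.2%). Most genes passed this test, so passing it is no mark of the members, and the sizes differ widely among them. A rise over 2-fold was seen for Dnmt3b and Tet1 in MYC-2983 and VM-3055 (2 of 8, against 4.49% and 5.92% of all genes), and for these 2 with Dnmt1 and Uhrf1 in VIM-3039 (4 of 8, against 7.67%). Changes below are log2 differences of units, with Dox minus without, on the log2(units + 1) scale, each with its SE and the adjusted p of the limma fit across all genes.

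Of the maintenance genes, Dnmt1 and Uhrf1 rose with Dox in all 3 lines. Dnmt1, the maintenance methyltransferase, stood at 2976, 2902, 2964 and 3108 units in MYC-2983 libraries without Dox and at 4291, 4527, 4680.0 and 4626 with it. In VM-3055 it was at 2525, 2578, 2362 and 2549 units without Dox and 4342, 4294, 4109.5 and 4016 with it. In VIM-3039 it was at 1749.9, 1690.1, 1671 and 1791 without and 3681, 3644, 3470.5 and 3832 with it. The Dox libraries were the higher in each line without overlap. The changes were 0.60 ± 0.030 (adjusted p = 1.86e-12) in MYC-2983, 0.74 ± 0.044 (adjusted p = 4.09e-11) in VM-3055 and 1.08 ± 0.035 (adjusted p = 3.37e-17) in VIM-3039. Uhrf1, which recruits Dnmt1 to hemimethylated DNA, was at 2339.9, 2251, 2288 and 2293 units in MYC-2983 without Dox and 3296, 3409, 3636 and 3495 with it. In VM-3055 the libraries without Dox held 1129.6, 1132, 1109 and 1224 units of Uhrf1 and those with Dox 2053, 1991, 1938 and 1972. In VIM-3039 they held 891, 909, 843 and 956 without and 2040.0, 2118, 2003 and 2128 with it. Again no library of one condition reached the other. Uhrf1 rose by 0.59 ± 0.029 (adjusted p = 1.53e-12), 0.79 ± 0.045 (adjusted p = 2.16e-11) and 1.20 ± 0.040 (adjusted p = 4.46e-17) in the 3 lines in that order.

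Uhrf2, the paralog of Uhrf1 that does not replace it in maintenance, differed little. It stood at 1194, 1189, 1157 and 1194 units without Dox and 1231, 1245, 1247 and 1225 with it in MYC-2983, a rise of 0.06 ± 0.027 (adjusted p = 0.0373). That call was lost without replicate 2 or 3 of either condition (adjusted p = 0.0549 to 0.114). In VM-3055 it was at 1259, 1368, 1295 and 1224 units without and 1139, 1085, 1163 and 1168 with Dox, and it fell by 0.18 ± 0.048 (adjusted p = 0.00301), a direction that turned to a difference of 0.04 with another scaling of the libraries (trimmed mean of M-values, TMM). In VIM-3039 it was at 1361, 1437, 1426 and 1331 without and 1211, 1226, 1204 and 1125 with it, and it fell by 0.22 ± 0.038 (adjusted p = 2.39e-05), a call lost with TMM scaling (-0.07, adjusted p = 0.103). The conditions did not overlap in any line, but the difference stayed within 2-fold in each. Between upper quartile and TMM scaling the median Dox difference over genes of at least 50 units moved from -0.06 to 0.06 in MYC-2983, from -0.17 to 0.05 in VM-3055 and from -0.09 to 0.06 in VIM-3039, which is the size of the smallest changes named here.

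The largest change of a methyltransferase was that of Dnmt3b, a de novo enzyme. In MYC-2983 its level was 49.9, 42.8, 40.5 and 51.1 units without Dox and 288, 322, 336 and 276 with it. In VM-3055 it was 26.5, 28.7, 26.4 and 28.9 without and 102, 95.3, 129 and 101 with it. In VIM-3039 it was 21.8, 29.0, 38.8 and 41.5 without and 115, 119, 127 and 116 with it. The lowest Dox library of each line was above 2 times the highest library without Dox. The ratios of the means were 6.63, 3.87 and 3.64, and the changes 2.71 ± 0.095 (adjusted p = 1.13e-14), 1.91 ± 0.14 (adjusted p = 8.84e-10) and 1.87 ± 0.17 (adjusted p = 1.63e-09). Dnmt3a, the other de novo enzyme, went different ways in the lines. It was at 951, 1027, 966 and 1016 units without and 874, 939.6, 995 and 902 with Dox in MYC-2983, at 705, 720.4, 629 and 689.7 without and 843, 843, 826 and 750.0 with it in VM-3055, and at 523, 466, 494 and 557 without and 423, 402, 385 and 407 with it in VIM-3039. The conditions overlapped in MYC-2983, where the difference was -0.09 ± 0.039 (adjusted p = 0.0369) and turned to 0.02 with TMM scaling. It missed the threshold without Dox replicate 1 or 4 or replicate 2 or 4 of the libraries without Dox (adjusted p = 0.0913 to 0.135). Dnmt3a rose by 0.25 ± 0.057 (adjusted p = 0.000744) in VM-3055 and fell by 0.33 ± 0.058 (adjusted p = 2.38e-05) in VIM-3039, without overlap in either.

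The 3 Tet genes, whose products oxidise methylcytosine, behaved differently from each other. Tet1 was at 5.25, 7.90, 7.52 and 10.3 units without Dox and 82.2, 80.5, 92.6 and 89.1 with it in MYC-2983. In VM-3055 it was at 1.76, 2.33, 2.33 and 4.56 without and 31.04, 34.9, 38.2 and 31.6 with it, and in VIM-3039 at 7.59, 2.23, 8.16 and 4.98 without and 44.4, 40.2, 36.7 and 40.4 with it. The libraries without Dox lay near the limit of 3 reads, at or under it in 2 of 4 for VM-3055 and 1 of 4 for VIM-3039, and far below every Dox library. Tet1 rose by 3.34 ± 0.18 (adjusted p = 3.91e-12), 3.27 ± 0.26 (adjusted p = 2.21e-09) and 2.73 ± 0.29 (adjusted p = 1.79e-08). At so few reads the size depends on the pseudocount and the processing, between 2.44 and 3.76, 1.79 and 3.98, and 1.70 and 3.28 in the 3 lines, and it passed the threshold under each alternative run.

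Tet2 was the 1 member that fell in all 3 lines. It was at 388, 470.5, 438 and 443 units without Dox and 347, 402, 357 and 367 with it in MYC-2983, where the conditions overlapped. In VM-3055 it was at 647, 712, 626 and 578 without and 437, 416, 401 and 354 with it, and in VIM-3039 at 321, 333, 287 and 358 without and 239, 198, 217 and 217 with it, in both without overlap. Tet2 fell by 0.24 ± 0.058 (adjusted p = 0.00118), 0.67 ± 0.074 (adjusted p = 1.86e-07) and 0.57 ± 0.078 (adjusted p = 8.38e-07). Tet3 was at 923, 1044, 1039 and 1084 units without and 1372, 1407, 1382 and 1391 with Dox in MYC-2983, at 821, 926, 847 and 867 without and 1380.3, 1248, 1242 and 1069 with it in VM-3055, and at 599, 562, 542 and 596 without and 857, 794, 759 and 797 with it in VIM-3039. The Dox libraries were higher throughout, and Tet3 rose by 0.44 ± 0.039 (adjusted p = 7.68e-09), 0.51 ± 0.065 (adjusted p = 1.39e-06) and 0.48 ± 0.048 (adjusted p = 8.62e-09).

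**Figure D2:**
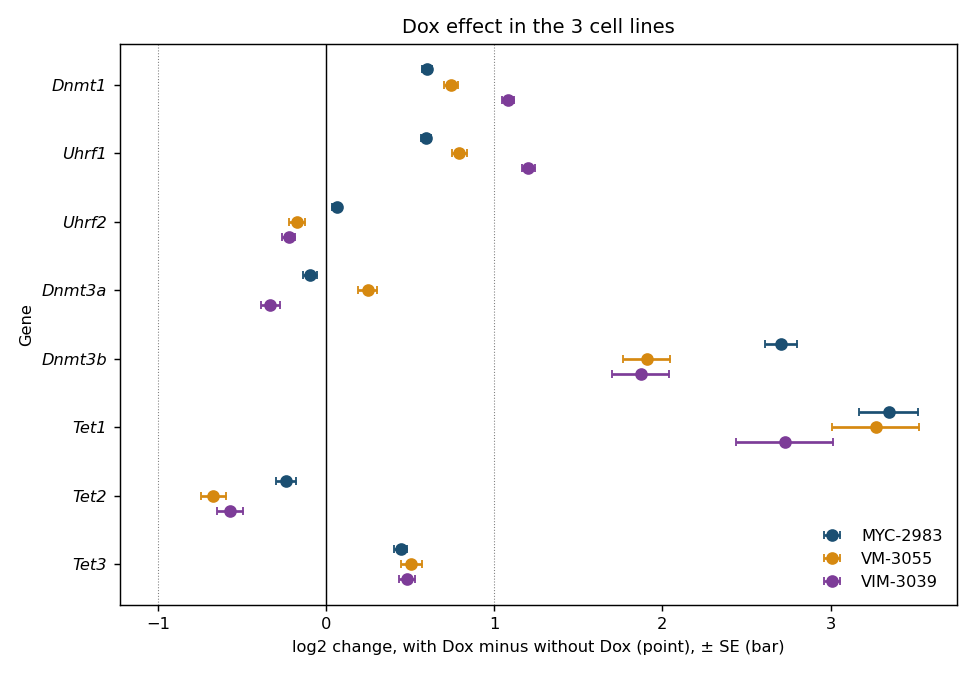
Log2 change with Dox of each member tested in the 3 lines (log2(units + 1), with Dox minus without), with its SE, from 4 libraries a condition. Tet1 (2.73 to 3.34) and Dnmt3b (1.87 to 2.71) lie farthest to the right, and Tet2 lies below 0 in each line.

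Genes of DNA replication moved with these changes. The summed level of 13 replication and S-phase genes (such as Mcm2 to Mcm7 and Rrm2) was 35130 to 36930 units without and 54250 to 56170 with Dox in MYC-2983, 20980 to 24560 and 44180 to 45490 in VM-3055, and 19060 to 19660 and 44010 to 45200 in VIM-3039. Of these genes 12, 13 and 13 of 13 rose in the lines in that order and none fell. Sums of cell type markers moved the other way. The fibroblast sum went from 992 to 1180 units without to 296 to 309 with Dox in MYC-2983, from 630 to 710 to 87.4 to 112 in VM-3055 and from 140 to 180 to 25.0 to 35.4 in VIM-3039. The renal tubule sum was 20740.0 to 22840 units without and 14720.0 to 15870 with Dox in MYC-2983, 17600 to 20300 and 9364 to 10910 in VM-3055, and 13350 to 14460 and 8899 to 9509 in VIM-3039. The leukocyte sum was 443 to 474, 946 to 1013 and 371 to 446 units without and 218 to 255, 363 to 408 and 287 to 315 with Dox. The part of any of these in the members' changes was not tested.

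Whether the Dox change differed between lines was tested as the interaction of Dox and line. Against MYC-2983, 6 of 8 members differed in VM-3055 (46.2% of all genes) and 6 of 8 in VIM-3039 (47.6%), and 3 of 8 differed between VIM-3039 and VM-3055 (33.3%), shares of 75%, 75% and 37.5%. The rise of Uhrf1 was larger by 0.20 (adjusted p = 0.00284) in VM-3055 and by 0.61 (adjusted p = 1.57e-09) in VIM-3039 than in MYC-2983, and larger by 0.41 (adjusted p = 1.11e-05) in VIM-3039 than in VM-3055. Dnmt1 had the same order, larger by 0.14 (adjusted p = 0.0308) and 0.48 (adjusted p = 2.6e-08) than in MYC-2983 and by 0.34 (adjusted p = 5.44e-05) in VIM-3039 than in VM-3055. The first of these missed the threshold with quantile normalization (0.11, adjusted p = 0.0688) and without any 1 of 5 libraries, MYC-2983 Dox replicate 1 or no-Dox replicate 4 and VM-3055 Dox replicate 1 or 2 or no-Dox replicate 3 (0.12 to 0.13, adjusted p = 0.0606 to 0.0769). Both genes of the maintenance pair thus rose most in VIM-3039. The replication genes had the same order. Of 13, the Dox change of 11 was larger in VM-3055 and of 13 in VIM-3039 than in MYC-2983. That of 10 was larger in VIM-3039 than in VM-3055, and none was smaller in any of these. The change of Dnmt3b was smaller in VM-3055 by 0.80 (interaction -0.80, adjusted p = 0.000408) and in VIM-3039 by 0.83 (interaction -0.83, adjusted p = 0.00241) than in MYC-2983. For Dnmt3a the interaction was 0.34 (adjusted p = 0.000454) for VM-3055, -0.24 (adjusted p = 0.00847) for VIM-3039, and -0.58 (adjusted p = 9.81e-06) between these 2 lines. The Dox changes of Uhrf2 and Tet2 were lower in both Vhl-/- lines than in MYC-2983, with interactions of -0.24 (adjusted p = 0.000543) and -0.28 (adjusted p = 1.48e-05) for Uhrf2 and -0.43 (adjusted p = 0.00152) and -0.33 (adjusted p = 0.00959) for Tet2. For Tet1 and Tet3 no difference between lines passed, with interactions against MYC-2983 of -0.08 and -0.62 for Tet1 and 0.06 and 0.04 for Tet3. The Tet1 interactions passed with a pseudocount of 10, at -0.66 (adjusted p = 0.000553) and -0.75 (adjusted p = 0.000761). The second also passed with quantile normalization (-1.01, adjusted p = 0.0255) and without VIM-3039 replicate 2 without Dox (-0.93, adjusted p = 0.0102).

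The lines were next compared with each other, all with Dox. VM-3055 differed from MYC-2983 in 7 of 8 members (76.6% of all genes), VIM-3039 from MYC-2983 in 7 of 8 (76.1%) and VIM-3039 from VM-3055 in 4 of 8 (67.5%), so the counts are near those of all genes or under them. MYC-2983 held the most of Dnmt3b, Uhrf1 and Tet1. Dnmt3b was lower by 1.51 in VM-3055 (difference -1.51, adjusted p = 6.25e-09) and by 1.35 in VIM-3039 (difference -1.35, adjusted p = 6.36e-10). Uhrf1 differed by -0.80 (adjusted p = 5.75e-11) and -0.74 (adjusted p = 5.82e-11), and Tet1 by -1.32 (adjusted p = 2.35e-07) and -1.07 (adjusted p = 6.72e-07). Between VM-3055 and VIM-3039 these 3 did not pass the test (0.17, 0.06 and 0.25). VIM-3039 was set apart by less Dnmt3a, Tet2 and Tet3. Dnmt3a was lower there by -1.20 (adjusted p = 9.6e-12) than in MYC-2983 and by -1.01 (adjusted p = 2.47e-11) than in VM-3055. The differences of Tet2 were -0.76 (adjusted p = 9.55e-08) and -0.88 (adjusted p = 2.58e-08), and those of Tet3 -0.79 (adjusted p = 6.81e-11) and -0.62 (adjusted p = 1.64e-07). The differences of Dnmt1 and Uhrf2 between VM-3055 and MYC-2983, -0.11 and -0.12, turned to 0.03 and 0.02 with TMM scaling. With TMM or quantile scaling 4 of 8 members passed there, Dnmt3a (-0.05 and -0.07) and Tet3 (-0.04 and -0.08) no longer passed, and Tet2 came to pass (0.26 and 0.31).

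Tumours were compared with normal kidney over 13 animals, the 2 libraries of mouse 2983 being averaged. In MYC tumours 6 of the 9 members were higher than in kidney (22.8% of all genes), in VM tumours 4 of 9 (22.8%) and in VIM tumours 4 of 9 (24.2%), and none was lower. Dnmt1, Dnmt3b, Uhrf1 and Tet1 were higher in all 3 tumour types, with some Dnmt1 and Tet1 calls lost under the alternatives given below. In bulk tissue fewer cells of a type and less RNA per cell cannot be told apart, and the replication sum was 1219 to 1647 units in kidney against 17940, 20540 and 33050 in MYC tumours, 7747, 18090 and 23500 in VM tumours, and 10850, 20110 and 7578 in VIM tumours. All 13 replication genes were higher in each tumour type, and the part of dividing cells in the differences below was not tested.

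Uhrf1 showed the largest difference from kidney of any member. It was at 19.03, 20.4, 21.4, 45.6 and 43.0 units in kidney, against 1118, 1171 and 1747 in MYC tumours, 178, 1029.9 and 1041 in VM tumours and 503, 1071 and 173 in VIM tumours. The lowest tumour library was above the highest kidney. The log2 differences were 5.47 ± 0.74 (adjusted p = 8.95e-05), 4.33 ± 0.64 (adjusted p = 0.000112) and 3.98 ± 0.64 (adjusted p = 0.000236). Dnmt1 was at 234, 336, 272, 324 and 368 units in kidney, 1523, 1941 and 2597 in MYC tumours, 571, 1247 and 1234 in VM tumours and 699, 1539 and 362 in VIM tumours. The third VIM tumour, of mouse 3130, lay within the kidney range, and the others lay above it. Dnmt1 was higher by 2.61 ± 0.45 (adjusted p = 0.000557), 1.66 ± 0.40 (adjusted p = 0.00354) and 1.27 ± 0.40 (adjusted p = 0.0178), the last of which missed the threshold without mouse 3233 (0.73, adjusted p = 0.103) and with the KT or B6 kidneys alone (1.09 and 1.53, adjusted p = 0.0848 and 0.0589). The first VM tumour and the third VIM tumour, lowest of their type for both genes, were also lowest in the replication sum.

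Uhrf2 was at 631, 593, 619.8, 572 and 756 units in kidney and 1299, 1446 and 1476 in MYC tumours, where it was higher by 1.12 ± 0.30 (adjusted p = 0.00942). It was at 533, 1479 and 1227 units in VM tumours and 812, 904 and 971 in VIM tumours, and these differences, 0.65 and 0.50, did not pass the test. The first VM tumour was below every kidney, while no VIM tumour overlapped them. The VM difference passed without that tumour (1.09, adjusted p = 0.000215) and with every tumour library taken separately (0.65, adjusted p = 0.0499). The VIM difference passed in a fit of those groups alone (0.50, adjusted p = 0.0187). The MYC call was lost with the B6 kidneys alone (1.14, adjusted p = 0.0608).

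Of the de novo enzymes, Dnmt3b differed between tumour and kidney and Dnmt3a did not pass the test. Dnmt3b was at 5.19, 17.5, 12.05, 17.9 and 34.2 units in kidney, the first of these 3 reads. It was at 125, 208 and 247 units in MYC tumours, 61.3, 115 and 75.2 in VM tumours and 134, 246 and 95.5 in VIM tumours, all above the kidneys. It was higher by 3.42 ± 0.63 (adjusted p = 0.000819), 2.37 ± 0.55 (adjusted p = 0.0028) and 3.22 ± 0.55 (adjusted p = 0.000339). Dnmt3a was at 604, 796, 604, 749 and 948 units in kidney, 968, 1355 and 168 in MYC tumours, 832, 1493 and 668 in VM tumours and 605, 1081 and 257 in VIM tumours. The tumours spread to both sides of the kidneys, and the differences were 0.24, 0.37 and -0.40. The 2 MYC tumour libraries of mouse 2983 held 1355 and 168 units of Dnmt3a, the highest and the lowest of the MYC tumours from 1 animal.

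Tet1 was at 36.3, 46.7, 36.1, 66.8 and 121 units in kidney, 173, 262 and 233 in MYC tumours, 139.8, 126 and 111 in VM tumours and 105, 299 and 127 in VIM tumours. The fifth kidney overlapped the VM and VIM tumours. Tet1 was higher by 1.89 ± 0.52 (adjusted p = 0.0103), 1.17 ± 0.45 (adjusted p = 0.0462) and 1.51 ± 0.45 (adjusted p = 0.0138), and the VM call missed the threshold against the KT kidneys alone (0.78, adjusted p = 0.223) and without any 1 of 7 of the 8 VM tumours and kidneys (1.02 to 1.26, adjusted p = 0.0575 to 0.113). The VIM call was lost without mouse 3233 (1.06, adjusted p = 0.0779) and with the KT kidneys alone (1.12, adjusted p = 0.0845), and the MYC call with the KT kidneys alone (1.5005, adjusted p = 0.0532). Tet2 was at 706, 702, 655, 782 and 802 units in kidney, 596, 1474 and 1031 in MYC tumours, 1000, 843 and 804 in VM tumours and 407, 531 and 575 in VIM tumours. All 3 VIM tumours were below the lowest kidney and all 3 VM tumours above the highest, but no difference passed the test (0.25, 0.27 and -0.54, with adjusted p = 0.456, 0.327 and 0.0551). The VIM difference passed under 4 alternatives, with TMM scaling (-0.62, adjusted p = 0.0272), quantile normalization, a fit of those groups alone and without VIM tumour replicate 3 (-0.54 to -0.64, adjusted p = 0.019 to 0.0488). The MYC difference was 0.78 without mouse 2917, where mouse 2983 was the only MYC animal left. Tet3 was at 393, 552, 371, 552 and 667 units in kidney and 926, 1994 and 1363 in MYC tumours, without overlap, and was higher there by 1.33 ± 0.35 (adjusted p = 0.00824). It was at 891, 907 and 720.1 units in VM tumours and 595, 1232 and 494 in VIM tumours, where the differences of 0.75 and 0.53 did not pass, although no VM tumour overlapped the kidneys. The VM difference passed with TMM scaling (0.76, adjusted p = 0.0465), in a fit of those groups alone (0.75, adjusted p = 0.0128), with the B6 kidneys alone (1.13, adjusted p = 0.0474) and without kidney replicate 5 (0.86, adjusted p = 0.0395). Without mouse 2983, mouse 2917 was the only MYC animal left. The MYC differences of Uhrf2, Tet1 and Tet3 were then 1.04, 1.63 and 0.90, each smaller than with both mice.

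**Figure D3:**
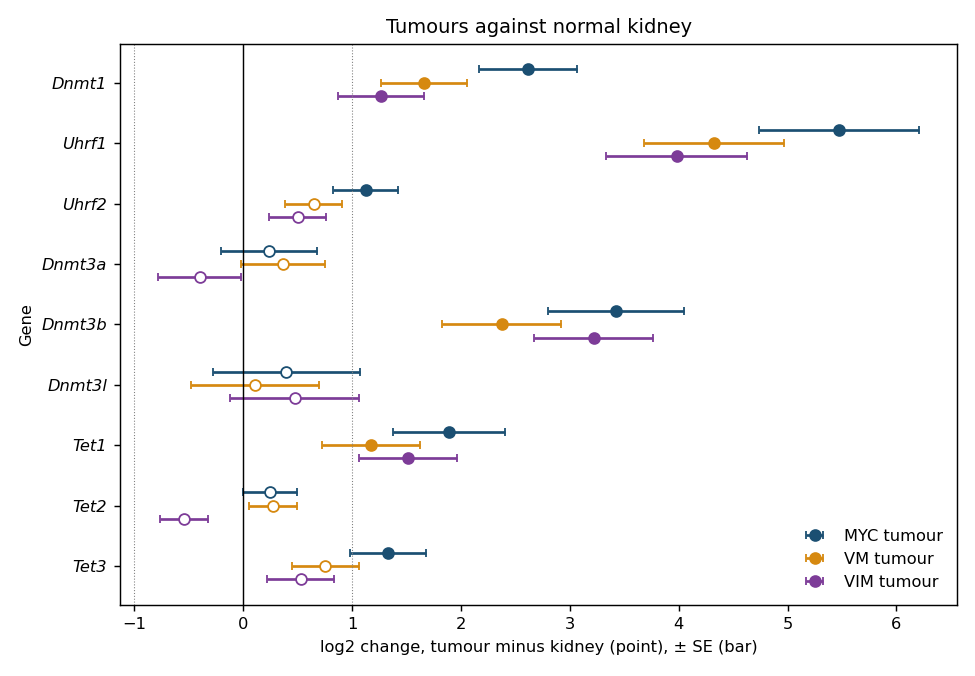
Log2 difference of each member between MYC, VM or VIM tumours and normal kidney (log2(units + 1), tumour minus kidney, 13 animals), with its SE, filled where it passed the test and open where it did not. Uhrf1 lies farthest to the right in each tumour type (3.98 to 5.47), Dnmt3b next, and Dnmt3a and Tet2 are open throughout.

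Between tumour types no member passed the test of the limma fit. In VM against MYC tumours 0 of 9 passed (2.4% of all genes), in VIM against MYC tumours 0 of 9 (4.72%) and in VIM against VM tumours 0 of 9 (2.89%). At an unadjusted p under 0.05 there were 0, 2 and 1 of them. These were Dnmt1 (-1.35, adjusted p = 0.121) and Tet2 (-0.79, adjusted p = 0.102) in VIM against MYC tumours, and Tet2 (-0.82, adjusted p = 0.0983) in VIM against VM tumours. Markers of other cell types varied among the tumours. The sum of 8 leukocyte markers was 15240, 3276 and 3335 units in MYC tumours, 7747, 2186 and 3392 in VM tumours and 14080, 7377 and 7872 in VIM tumours against 1282 to 2258 in kidney. Most of it was Lyz2, with means of 4903, 3033 and 7586 units against 355 in kidney, while Ptprc averaged 249.9, 73.7 and 188 against 308, and of the 8 markers 3 were higher and 0, 3 and 2 lower than in kidney. The fibroblast sum reached 12370 units in the second MYC tumour library. That library also held the most Tet2 and Tet3 of all tumours, and the part of these cells was not tested.

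The balance between members was read from the ratio of their units within a library, which is not corrected for length and so is compared only across groups. Uhrf1 per Dnmt1 was 0.738 to 0.786 in MYC-2983 without Dox and 0.753 to 0.777 with it, 0.439 to 0.480 and 0.464 to 0.491 in VM-3055, and 0.504 to 0.538 and 0.554 to 0.581 in VIM-3039. It differed more between lines than with Dox, and it was 0.0609 to 0.141 in kidney against 0.312 to 0.843 in tumours. Dnmt3a per Dnmt3b was 19.1 to 24.0 without and 2.92 to 3.27 with Dox in MYC-2983, 23.9 to 26.7 and 6.40 to 8.84 in VM-3055, and 12.7 to 24.0 and 3.03 to 3.69 in VIM-3039. In kidney it was 27.7 to 116, and in tumours 0.68 to 13.6. Tet1 per Tet2 was 0.0135 to 0.0233 without and 0.20 to 0.26 with Dox in MYC-2983, 0.00273 to 0.00788 and 0.071 to 0.0953 in VM-3055, and 0.00669 to 0.0285 and 0.169 to 0.203 in VIM-3039. The kidneys, at 0.0515 to 0.151, lay above the cells without Dox for this ratio, and the tumours were at 0.138 to 0.564.

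**Figure D4:**
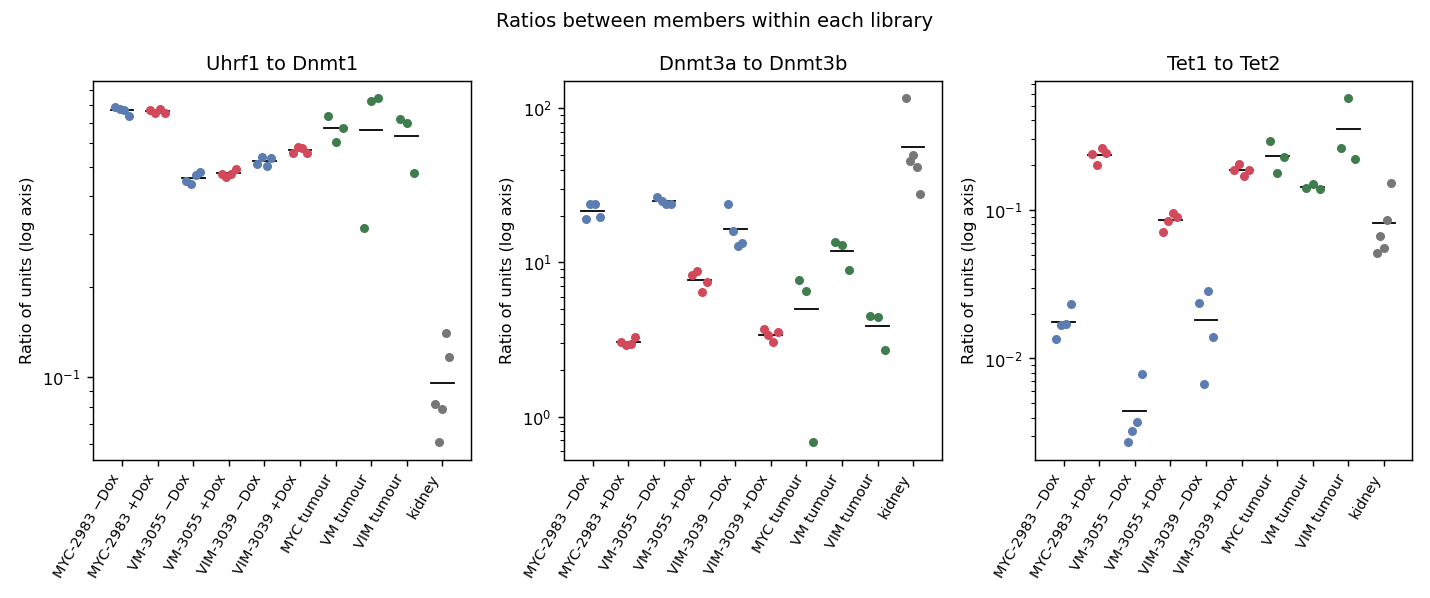
Ratios of units within each library (log axis) for Uhrf1 per Dnmt1, Dnmt3a per Dnmt3b and Tet1 per Tet2, by group, with Dox cells in red, cells without Dox in blue, tumours in green and kidney in grey. Dnmt3a per Dnmt3b is lower with Dox in each line and highest in kidney (27.7 to 116), while Uhrf1 per Dnmt1 is lowest in kidney.

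Across all 10 groups, Dnmt1 ran from a mean of 4531 units in MYC-2983 with Dox through 4190.0 in VM-3055 and 3657 in VIM-3039 with Dox to 306.7 in kidney. The ranges of MYC-2983 and VM-3055 with Dox overlapped, as did those of MYC tumours with VM-3055 and VIM-3039 cells without Dox. Dnmt3b ran from 305.5 units in MYC-2983 with Dox, which no other group reached, through tumours and the other Dox cells, to 17.4 in kidney, and each group of cells without Dox was below each tumour type in mean. Tet1 had another order, in which the tumours came first. Replicates 2 and 3 of the MYC tumours were libraries of mouse 2983. MYC tumours were at 223 ± 45.8 units, VIM tumours at 177 ± 106 and VM tumours at 126 ± 14.4 (SD, n = 3 libraries each). They were followed by MYC-2983 cells with Dox at 86.1 ± 5.74 (SD, n = 4) and kidney at 61.5 ± 35.8 (SD, n = 5), and the cells without Dox came last.

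Genes that work with these enzymes were counted in lists chosen by function, to be read against the shares of all genes tested. With Dox these were 31.5%, 26.1% and 31.1% higher and 44%, 47.7% and 44.2% lower in MYC-2983, VM-3055 and VIM-3039 in turn, and in tumours against kidney 22.8%, 22.8% and 24.2% higher and 18.4%, 25.9% and 24.2% lower for MYC, VM and VIM. Of 9 partners of methylation maintenance and silencing tested, 8 rose and 1 fell with Dox in MYC-2983, 8 and 1 in VM-3055 and 7 and 1 in VIM-3039, with median changes of 0.66, 0.62 and 0.73 against -0.13, -0.26 and -0.15 over all genes tested. Cdca7, which recruits the remodeller Hells to chromatin, rose by 1.19, 1.83 and 2.07 (adjusted p = 6.16e-17, 2.19e-15 and 1.89e-20), and Pcna, the sliding clamp that binds Dnmt1, by 0.84, 1.02 and 1.20. Hells rose by 1.21 in VM-3055 and 1.503 in VIM-3039. In tumours against kidney 7 of 10 partners were higher and 0 lower in MYC and VM tumours, and 7 higher and 1 lower in VIM tumours, against 22.8 to 24.2% of all genes higher. Cdca7 was higher by 6.24, 5.57 and 5.22 and Hells by 6.01, 5.15 and 5.13 in MYC, VM and VIM tumours.

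Among genes of the methyl donor cycle 6 rose and 1 fell of 7 in MYC-2983, 4 and 1 of 7 in VM-3055 and 5 and 1 of 8 in VIM-3039, against 26.1 to 31.5% of all genes higher and 44 to 47.7% lower. Ahcy, which clears the methyltransferase inhibitor S-adenosylhomocysteine, rose by 0.84, 1.57 and 2.13 (adjusted p = 1.93e-10, 1.21e-14 and 1.55e-18). In tumours 1 was higher and 4 lower of 9 in MYC, 1 and 2 in VM, and 2 and 2 in VIM, against 22.8 to 24.2% of all genes higher and 18.4 to 25.9% lower.

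Of the readers of methylated DNA 2 rose and 6 fell of 8 in MYC-2983, 1 and 5 in VM-3055 and 2 and 4 in VIM-3039, where 44%, 47.7% and 44.2% of all genes fell. The zinc finger readers Zbtb4 and Zbtb38 fell in all 3 lines, Zbtb4 by 2.11, 2.73 and 2.50 (adjusted p = 5e-16, 2.3e-12 and 1.91e-19) and Zbtb38 by 1.35, 1.70 and 1.21. In tumours against kidney 1 reader was higher and 0 lower of 8 in MYC, 2 and 1 in VM and 0 and 2 in VIM, against 22.8 to 24.2% of all genes higher and 18.4 to 25.9% lower. Zbtb38 was lower in VIM than in VM tumours (-1.16, adjusted p = 0.0492).

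Genes that act after the Tet enzymes were mixed, 5 higher and 3 lower of 10 in MYC-2983, 4 and 5 of 9 in VM-3055 and 4 and 4 of 10 in VIM-3039, against 26.1 to 31.5% of all genes higher and 44 to 47.7% lower. Apex1, the endonuclease that cuts abasic sites, rose by 1.04, 1.39 and 1.63, while Gadd45g, linked to active demethylation, fell by 1.80, 1.32 and 2.12. In tumours 4 were higher and 1 lower of 10 in MYC, 5 and 1 in VM and 5 and 2 in VIM, against 22.8 to 24.2% of all genes higher. Apex1 was higher there by 3.21, 3.02 and 3.40, and Neil3, a glycosylase of oxidised bases, stood at means of 313, 248 and 187 units in MYC, VM and VIM tumours against 3.46 in kidney, where 3 of 5 libraries were at or under the limit of 3 reads.

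Of the genes that supply or assist the Tet enzymes, 3 rose and 3 fell of 7 in MYC-2983, 2 and 4 in VM-3055 and 3 and 3 in VIM-3039, shares near or above those of all genes (26.1 to 31.5% higher and 44 to 47.7% lower). Idh1, a source of 2-oxoglutarate, fell by 0.40, 0.92 and 1.04. In tumours 0 were higher and 4 lower in MYC, 0 and 6 in VM and 1 and 5 in VIM, against 18.4%, 25.9% and 24.2% of all genes lower. Idh1 differed from kidney by -3.43, -1.66 and -1.72 in MYC, VM and VIM tumours, and was higher in VM than in MYC tumours by 1.77 (adjusted p = 0.0011) and in VIM than in MYC tumours by 1.71 (adjusted p = 0.002).

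Germline genes that somatic cells silence by promoter methylation were mostly near 0, and few could be tested. Of 12 listed, 0 of 3 tested passed with Dox in MYC-2983, 0 rose and 2 fell of 4 in VM-3055, and 2 rose and 2 fell of 4 in VIM-3039. Asz1, a piRNA pathway gene of germ cells, was at 1135 to 1330 units in VIM-3039 without Dox and 1575 to 1875 with it, where it rose by 0.51 ± 0.052 (adjusted p = 9.84e-09), and at most 7.40 units in every other library. The synaptonemal complex gene Sycp1 was at 10.5 to 22.2 units in VIM-3039 with Dox and at 0 in all libraries of the other lines. The VIM tumours did not share this, with Asz1 at a mean of 0.612 units. In tumours against kidney Mov10l1, a piRNA helicase, was at 132, 495 and 5.51 units in VIM tumours and 0 in kidney and MYC tumours (adjusted p = 0.000432 against kidney). VM tumours were not all at or under the limit of 3 reads for Mov10l1. Between VIM and VM tumours 0 of 10 listed genes tested passed, against 2.89% of all genes. Sycp3 was lower than in kidney in all 3 tumour types (-3.93, -1.81 and -3.50). DNA methylation was not measured.

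**Figure D5:**
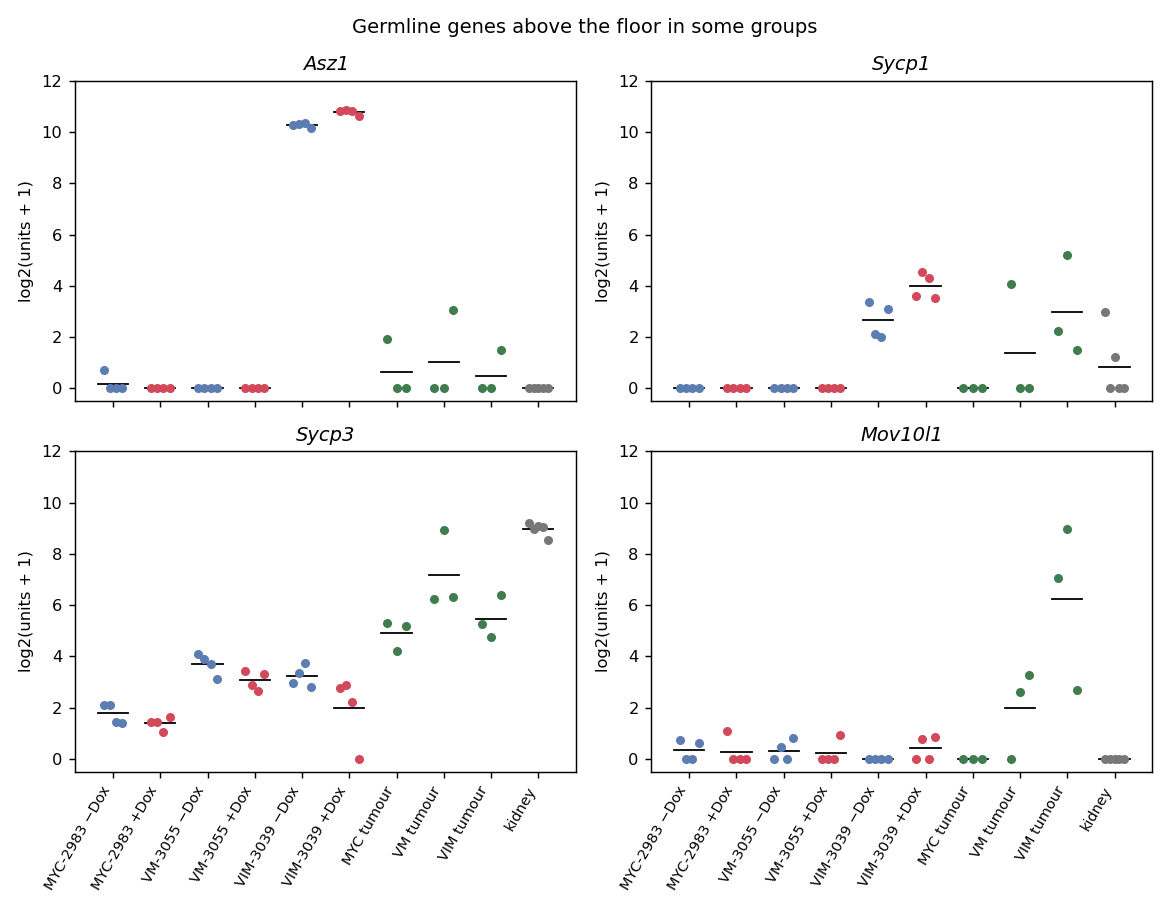
Level of germline genes in each library (units on a log2(units + 1) axis), by group, with Dox cells in red, cells without Dox in blue, tumours in green and kidney in grey. Asz1 is high in the 8 libraries of VIM-3039, at 1135 units or more, and at or near 0 elsewhere, and Sycp3 is highest in kidney.

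Genes whose level most resembled each member were named by Pearson's r of log2(units + 1) over the 38 libraries, among 11870 genes, as a description, since libraries of a line or tissue share source and scaling. For Uhrf1 they were Lig1 (0.989), Ncapg2 (0.989) and Ddx11 (0.988), and for Dnmt1 Hirip3 (0.988), Mcm2 (0.987) and Sf1 (0.984). For Tet1 they were Prps2 (0.955), Fem1a (0.947) and Slc19a1 (0.944), and for Dnmt3b Cnot10 (0.927), Tfap4 (0.921) and Cpsf3 (0.92). The nearest to Tet3 was Ccdc9 (0.946), to Tet2 Rragd (0.917) and to Uhrf2 2700081O15Rik (0.908). Dnmt3a had no close match, the nearest being Ppp1r13b at 0.775.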

How the data were processed

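RNA was sequenced as paired-end, strand-keeping mRNA libraries from 24 cell, 9 tumour and 5 kidney samples. The authors aligned reads to mm9 with MapSplice, handled alignments with Picard 1.64, SAMtools and UBU, estimated counts with RSEM on UCSC knownGene, and deposited the values after scaling each library to an upper quartile of 1000. The deposited values are a normalised signal per gene and not counts, so no count model was used. From steps among low values the worth of 1 read was estimated in each library (94.1 to 95.9% of values under 20 reads came out whole within 0.02), which gave the depth of 8.22 to 36.6 M reads (M, megareads) and the limit of 3 reads.

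Samples were grouped by the deposited labels. Log2(units + 1) was fitted with limma 3.58.1 (R 4.3.3, eBayes with trend), each Dox or line comparison on its own groups, interactions on both lines, tissue in 1 fit of all 4 groups over 13 animals with libraries of 1 mouse averaged. Genes above 0 in at least 4 libraries (2 animals for tissue) were tested, with Benjamini-Hochberg adjusted p under 0.05, and rises over 2-fold were counted also. All 15 comparisons were tested on the whole table. The fits were tested on simulated data, where 99.5% of 200 genes changed 4-fold were called for the VM-3055 Dox effect, and 84.5% for VIM tumours against kidney.

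Named genes were all members and, per list and comparison, at most 4 genes of mean 50 units or more with the largest changes among those that passed, and the 3 genes of highest r per member. Sycp1 was named after its values were seen. The members and lists were chosen with earlier results of these data known. Alternatives were other pseudocounts (0.1 and 10), no filter or a mean of 10 units, TMM and quantile scaling, leaving out each library or animal, KT kidneys only, B6 kidneys only, all groups in 1 fit or only those compared, lines without Dox, tumour libraries taken separately and a replicate block. Promoter windows are from RefSeq (GRCm38.p6) and gene positions from NCBIM37. Proteins were not analysed here, and the values of some listed genes are not reported here.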

Additional observations from a re-analysis of the deposited data

Results flagged for a closer look

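Of 59 member and group pairs of 4 or 5 libraries, 4 had 1 library set apart from the rest by Dixon's test, which chance does in about 1 of 20. Uhrf2 stood at 1157 units in the third MYC-2983 library without Dox, against 1189 in the next. The other 3 were Dnmt3l at 0.542 units in MYC-2983 with Dox, 0.877 in VM-3055 with Dox and 1.63 in kidney, each the 1 library above 0 in its group and each under the limit of 3 reads.

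The Dox change differed between lines in 15 of 24 interaction tests on members, all with limma adjusted p under 0.05. Between VM-3055 and MYC-2983 the interaction was 0.14 for Dnmt1, 0.34 for Dnmt3a, -0.80 for Dnmt3b, 0.20 for Uhrf1, -0.24 for Uhrf2 and -0.43 for Tet2, of which the Dnmt1 call was lost with quantile normalization and without any 1 of 5 libraries (adjusted p = 0.0606 to 0.0769). Between VIM-3039 and MYC-2983 it was 0.48 for Dnmt1, -0.24 for Dnmt3a, -0.83 for Dnmt3b, 0.61 for Uhrf1, -0.28 for Uhrf2 and -0.33 for Tet2. Between VIM-3039 and VM-3055 it was 0.34 for Dnmt1, -0.58 for Dnmt3a and 0.41 for Uhrf1. Each genotype is represented by 1 line, so line and genotype cannot be told apart. MYC-2983 cells also had their own series of sample numbers, and whether they were sequenced separately is not given.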

How the results depend on the processing

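Of 259 alternative counts of members past the threshold, all but 8 were within 1.5 times the reported count. VM-3055 against MYC-2983 with Dox went from 7 to 4 with TMM scaling and to 4 with quantile normalization, VIM tumours against kidney from 4 to 2 with the KT kidneys alone, and VIM against MYC tumours from 0 to 1 with every tumour library taken separately. The cause was not tested. Leaving out 1 library or animal at a time gave 6 to 8, 8 to 8 and 8 to 8 members for Dox in MYC-2983, VM-3055 and VIM-3039, 5 to 6, 6 to 7 and 3 to 3 for the interactions, and 7 to 8, 7 to 7 and 4 to 5 for the lines with Dox, in the order of the report. It gave 3 to 5 and 2 to 5 for VM and VIM tumours against kidney, the latter lowest without VIM tumour replicate 2 (2). Between tumour types it gave 0 to 0, 0 to 2 and 0 to 0, where VIM against MYC tumours gave 2 without VIM tumour replicate 2. Leaving out either MYC mouse left the other as the only MYC animal, so no counts are given for those fits.

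Of 2159 alternative values of single members, 2077 kept their side of the threshold and, where a fit passed, their direction. Another 44 no longer passed, 30 came to pass and 8 turned. A change of sign where neither fit passed was not counted as a turn. Dnmt3a in MYC tumours against kidney, for example, ran from -0.27 to 0.51 without passing. With TMM scaling the Dox difference turned to 0.0181 for Dnmt3a in MYC-2983 and 0.0369 for Uhrf2 in VM-3055, and with Dox Dnmt1 and Uhrf2 in VM-3055 against MYC-2983 turned to 0.0269 and 0.0197 and Uhrf2 in VIM-3039 against MYC-2983 to 0.0855. Without Dox, Uhrf2 was higher by 0.12 in VM-3055 and 0.23 in VIM-3039 than in MYC-2983, and Uhrf1 differed by -0.35 between VIM-3039 and VM-3055. Against the KT kidneys alone the differences of Dnmt1 and Tet1 in VIM tumours were 1.09 and 1.12 (adjusted p = 0.0848 and 0.0845).

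A replicate block on the numbers in the labels gave 8 members for Dox in VM-3055, 8 in VIM-3039, 3 for their interaction and 4 for the lines with Dox, as without it. Libraries of the same number did not deviate together (correlations of -0.307 to -0.0463 in VM-3055 and -0.0622 to 0.108 in VIM-3039), so they share only a number. Depth limited Tet1 in cells without Dox and Dnmt3l throughout.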
